A study of Mus musculus with 6 samples.

Results

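The liver both stores and releases glucose, and the 28 genes described here cover the enzymes and signals that set this balance. They comprise 9 genes of glycolysis and sugar entry, 5 of gluconeogenesis, 7 of glycogen metabolism and 7 of insulin and glucagon signalling. They come from a list of 30 symbols chosen by pathway, with earlier results of these data known. Pfkfb1 and Gpi1 had no probe set with exactly 1 gene symbol under those names and were not analysed here. Each gene is represented by its brightest probe set on average, as were all 18193 genes tested.

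Livers came from mice of the C57BL/6 background whose genotype is given as CYP2D6 transgenic, so the human P450 gene was carried at every stage and no group without it was analysed here. The promoter that drives the transgene is not stated in the labels. The 3 groups were mice before pregnancy, at day 21 of gestation and at day 7 postpartum, each with 2 replicates that the labels call biological, on 1 Affymetrix array each. The sources used here do not give ages, feeding or the hour of collection, so a difference between stages cannot be told apart from a difference in those.

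In the fed liver, glucose is taken up and phosphorylated, and then either built into glycogen or broken down through glycolysis. In fasting, glycogen breakdown and gluconeogenesis release glucose to the blood. Insulin acts through its receptor, the docking proteins IRS1 and IRS2 and the kinase AKT2, which restrains the transcription factor FOXO1, while glucagon acts through its own receptor to favour glucose output. Late pregnancy is known for reduced insulin sensitivity of the mother, and lactation for a large glucose demand by the mammary gland.

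Values are on a scale inferred from their range to be log2, on which a difference of 1 is a doubling of signal, and array medians lay between 5.09 and 5.15. The upper quartiles were lowest in pregnancy, at 7.48 and 7.44 before pregnancy, 7.38 and 7.33 at day 21 and 7.47 and 7.43 postpartum. The part of this in the differences of bright genes was not tested, and results with repeated quantile normalization are given below. Across genes, which are not independent replicates, the Pearson correlation of the replicate pairs was 0.9969 (pre-pregnancy), 0.9941 (pregnancy) and 0.9964 (postpartum). The 7 hepatocyte markers measured were bright, with gene means from 12.69 to 14.92. With the limma test described below, 0 of 7 passed in any comparison, beside 3.29% to 13.7% of all genes. The nearest was Cyp2e1, at -0.395 postpartum against pre-pregnancy (limma adjusted p = 0.0661). The summed level of the 7 markers lay between 17.01 and 17.1 on the log2 scale in all 6 arrays. These were whole livers, in which fewer cells of a type and less RNA per cell cannot be told apart.

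Differences were tested with limma across all 18193 genes, with p-values adjusted by the Benjamini-Hochberg method, and a gene is said to rise or fall where the adjusted p was under 0.05. Of the 28 genes, 7 passed in at least 1 pairwise comparison and 21 in none. From pre-pregnancy to pregnancy Irs2 rose and Pgk1, Khk and Ppp1r3b fell, which is 14.3% of the genes beside 13.7% of all genes tested, a share near the background. Repeated quantile normalization of the deposited values turned this balance to 3 higher and 2 lower, with Pfkl and Insr gained and Pgk1 lost. From pregnancy to postpartum Khk and Ppp1r3b rose and Gys2 fell, 10.7% beside 3.29% of all genes. Between postpartum and pre-pregnancy Tpi1, Irs1 and Irs2 were higher and Gys2 was lower, 14.3% beside 7.66%. The moderated F test over the 3 stages called 6 genes (Pgk1, Khk, Gys2, Ppp1r3b, Irs1 and Irs2), 21.4% beside 13.8%. Any pair of these comparisons shares the arrays of 1 stage, so a gene can be called in both through the same arrays.

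**Figure D1:**
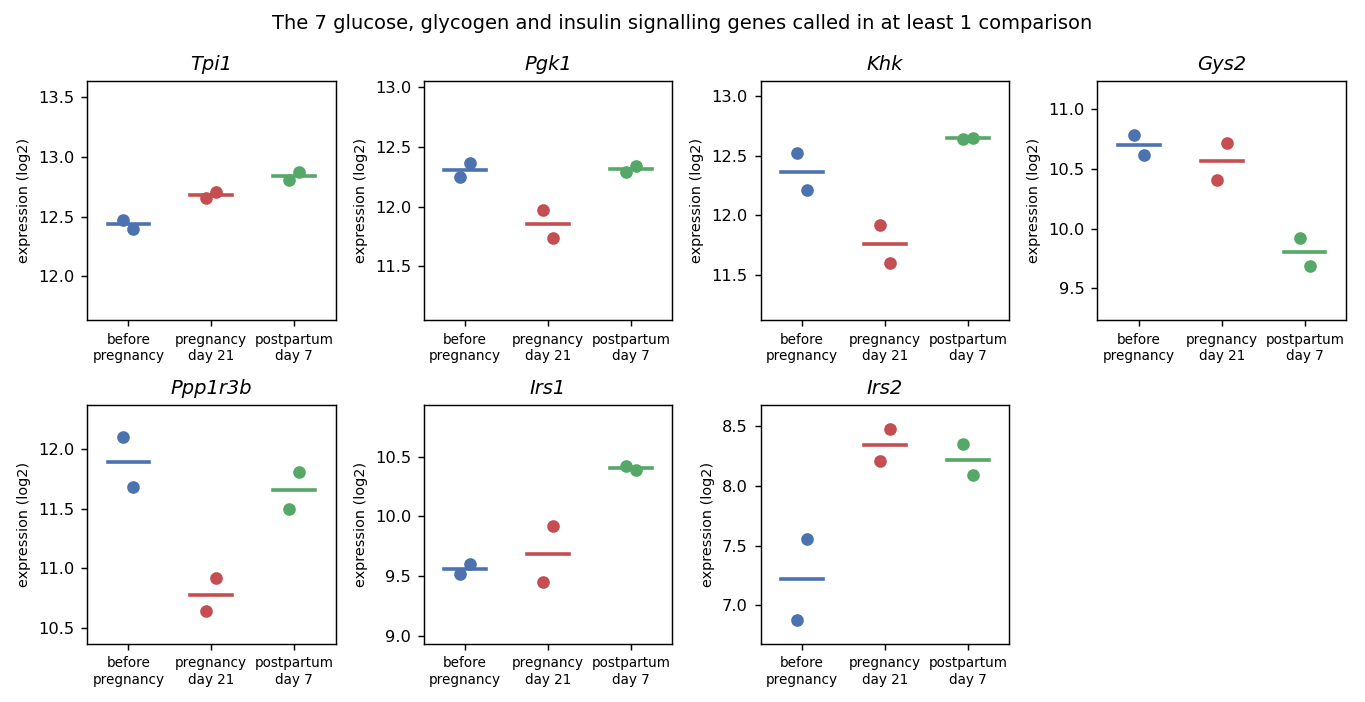
Expression on the log2 scale (vertical axis, each panel spanning 2 log2 units) of the 7 called genes in each array (points) with the mean of each stage (bars). Khk, Pgk1 and Ppp1r3b are lowest in pregnancy, Gys2 is lowest and Irs1 highest postpartum, and both pre-pregnancy arrays of Irs2 lie below all others.

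The stage means of these 7 genes took several courses, and differences between the courses were not tested. The means of Khk, Pgk1 and Ppp1r3b were lowest in pregnancy, and Irs2 was higher at both later stages than before pregnancy. Gys2 had its lowest mean and Irs1 its highest in the postpartum liver. From pregnancy to postpartum, Pgk1 and Irs1 missed the threshold (limma adjusted p = 0.0783 and 0.0509). The precision is limited by the 2 arrays per stage: without pre-pregnancy replicate 1, 11 of 11 called differences lost their call, and the other arrays left out in turn cost between 2 and 9 calls. No called difference changed its sign in any alternative (0 of 11). For all 28 genes the median difference was -0.103 from pre-pregnancy to pregnancy, 0.167 from pregnancy to postpartum and 0.08 from pre-pregnancy to postpartum, beside 0.045, -0.01 and 0.025 for all genes tested.

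The arrays of the stages compared did not overlap for 15 of the 28 genes from pre-pregnancy to pregnancy, 53.6% beside 59.6% of all genes. They did not overlap for 18 genes from pregnancy to postpartum, 64.3% beside 50.1%, and for 17 genes from pre-pregnancy to postpartum, 60.7% beside 52.6%. With 2 arrays a stage, lack of overlap was thus common in the whole liver data set and is given below only as a description.

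**Figure D2:**
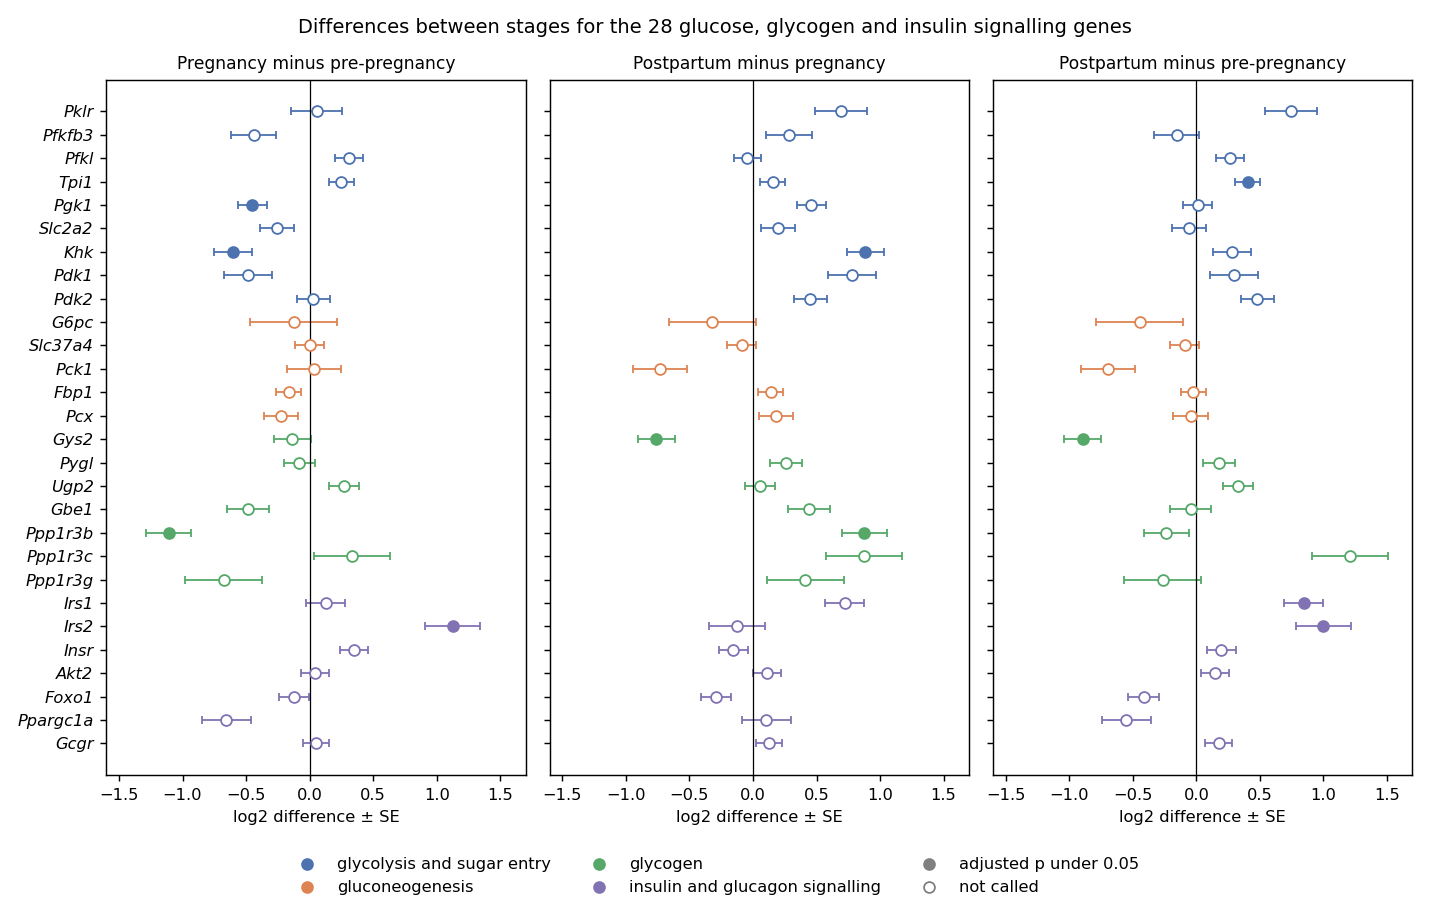
Log2 difference between stages with its moderated standard error (horizontal axis) for each of the 28 genes (rows), coloured by pathway, in the 3 comparisons. Filled points passed the adjusted p threshold: 4 genes from pre-pregnancy to pregnancy, 3 from pregnancy to postpartum and 4 from pre-pregnancy to postpartum. None (0) are among the 5 gluconeogenesis genes. Of all genes tested, 13.7%, 3.29% and 7.66% passed in turn.

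Promoters of the called genes were searched for the E-box CACGTG, a sequence bound by basic helix-loop-helix factors such as USF, CLOCK with BMAL1 and, in paired form, the glucose-responsive factor ChREBP. The window ran from 250 bases before to 50 bases after each RefSeq start site in GRCm38.p6, and 5 of the 7 called genes have such a window in the table used. The motif is its own reverse complement, so both strands are read at once. It occurs in Khk, Irs1 and Irs2 and not in the windows of Tpi1 and Pgk1, and in 7 of the 25 listed genes with a window, beside 8.09% of 27025 genes and 7.15% of their 32851 windows. The 250 bases before the start of the 3 called genes that hold it are shown because they include the gene with the clearest fall and return in glycolysis and both insulin receptor substrates. They lie at chr5:30921309-30921558 on the plus strand for Khk, at chr1:82291440-82291689 on the minus strand for Irs1 and at chr8:11008930-11009179 on the minus strand for Irs2. Capitals mark the E-box, and each sequence is written 5′ to 3′ along the gene's own strand.
Khk: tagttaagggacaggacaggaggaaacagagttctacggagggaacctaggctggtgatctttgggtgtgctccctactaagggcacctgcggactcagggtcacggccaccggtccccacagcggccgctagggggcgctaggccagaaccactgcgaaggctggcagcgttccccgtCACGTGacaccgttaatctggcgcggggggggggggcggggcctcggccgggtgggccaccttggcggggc
Irs1: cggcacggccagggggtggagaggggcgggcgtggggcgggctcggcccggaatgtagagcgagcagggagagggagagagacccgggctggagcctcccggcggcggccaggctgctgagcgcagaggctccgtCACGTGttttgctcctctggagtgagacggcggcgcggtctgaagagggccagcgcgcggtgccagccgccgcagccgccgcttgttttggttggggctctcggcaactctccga
Irs2: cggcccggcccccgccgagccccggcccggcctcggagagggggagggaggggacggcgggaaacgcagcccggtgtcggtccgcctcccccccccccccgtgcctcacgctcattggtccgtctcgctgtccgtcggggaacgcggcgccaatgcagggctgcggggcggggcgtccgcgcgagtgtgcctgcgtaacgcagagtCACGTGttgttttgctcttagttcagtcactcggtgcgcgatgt
The first base of the motif is 71 bases before the start in Khk, 115 in Irs1 and 44 in Irs2. Of these 3 genes, Khk fell in pregnancy and rose afterwards, Irs2 rose in pregnancy, and both Irs1 and Irs2 were higher postpartum than before pregnancy; differences between their courses were not tested. The FoxO sequence GTAAACA, read on both strands, is in 4.05% of all genes (3.65% of windows) and in 0 of the 25, and the cyclic AMP response sequence TGACGTC is in 3.6% of all genes (3.21% of windows) and in 1 of the 25, Slc37a4. A match is a match of letters only, and no match says only that these letters are not in the window.

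Among the genes of glycolysis and sugar entry, Khk and Pgk1 fell in pregnancy, Khk rose again postpartum and Tpi1 was higher postpartum than before pregnancy. The other 6 passed in no comparison. From pre-pregnancy to pregnancy 2 of 9 fell and 0 rose, beside 8.25% of all genes called lower and 5.46% called higher. From pregnancy to postpartum 1 rose and 0 fell, beside 2.41% called higher and 0.879% called lower. Between postpartum and pre-pregnancy 1 was higher and 0 lower, beside 3.91% and 3.75%. The median difference of the 9 genes was -0.255, 0.45 and 0.28 in these comparisons in turn.

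Khk encodes ketohexokinase, which phosphorylates fructose and so opens fructose breakdown in the liver. Its values (probe set 1449062_at) were 12.52 and 12.21 before pregnancy, 11.92 and 11.6 at day 21 and 12.64 and 12.65 postpartum. Both pregnancy arrays lay below the 4 others. Khk fell 1.52-fold in pregnancy (log2 difference -0.605 ± 0.148 SE, 95% interval -0.948 to -0.262, adjusted p = 0.0347, n = 2 arrays per stage, limma) and rose 1.85-fold from pregnancy to postpartum (0.885 ± 0.148, adjusted p = 0.0252). The postpartum level was 0.28 ± 0.148 above that before pregnancy, which missed the threshold (adjusted p = 0.318). Left-out arrays moved the fall between -0.765 and -0.445 and the rise between 0.725 and 1.045; each kept its call in 1 of 6 such fits, the one without pregnancy replicate 1. With only the 2 stages compared in the fit, the adjusted p was 0.0586 for the fall and 0.05 for the rise.

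Pgk1 encodes phosphoglycerate kinase 1, the first enzyme of glycolysis that yields ATP. Its values were 12.25 and 12.36 before pregnancy, 11.97 and 11.74 at day 21 and 12.29 and 12.34 postpartum, so the pregnancy arrays again lay below the others. The fall in pregnancy was 1.37-fold (-0.45 ± 0.116, adjusted p = 0.0409), and the difference from pregnancy to postpartum was 0.46 ± 0.116 (adjusted p = 0.0783). The probe set used, 1438640_x_at, carries the suffix that Affymetrix gives to probe sets whose probes can also match other transcripts. The other 2 probe sets of Pgk1 were -0.265 and -0.205 from pre-pregnancy to pregnancy and did not pass when each probe set was fitted by itself (adjusted p = 0.12 and 0.213). The call was also lost with the mean of all its probe sets (-0.307, adjusted p = 0.0532) and with repeated quantile normalization (-0.394, adjusted p = 0.0635). It kept its call in 1 of 6 fits with an array left out, the one without pregnancy replicate 1 (-0.565, adjusted p = 0.0361).

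Tpi1, triosephosphate isomerase, interconverts the 3-carbon products of the aldolase step. Its values (probe set 1415918_a_at) were 12.47 and 12.4 before pregnancy, 12.66 and 12.71 at day 21 and 12.81 and 12.87 postpartum, with no overlap between any stages. Postpartum it was 1.32-fold above pre-pregnancy (0.405 ± 0.0993, adjusted p = 0.0493), close to the threshold, and the F test over the stages gave an adjusted p of 0.0648. In the limma fit of every probe set, the one used just missed the threshold for the same comparison (adjusted p = 0.0507). The other 2 probe sets of Tpi1 gave 0.445 and 0.365 there, with adjusted p = 0.0364 and 0.0761. The call was lost with each of the 6 arrays left out (0.37 to 0.44, adjusted p from 0.0543 to 0.246).

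Pklr encodes the liver pyruvate kinase of the last glycolytic step. Its values were 9.98 and 9.49 before pregnancy, 9.6 and 9.98 at day 21 and 10.65 and 10.31 postpartum. Both postpartum arrays lay above the rest, but the differences of 0.69 ± 0.203 from pregnancy and 0.745 ± 0.203 from pre-pregnancy missed the threshold (adjusted p = 0.113 and 0.0676). For the last difference its other 2 probe sets gave only 0.19 and 0.135.

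Pdk1 and Pdk2 encode kinases that switch off pyruvate dehydrogenase and so hold back the entry of pyruvate into mitochondrial oxidation. Pdk1 was measured at 10.46 and 10.03 before pregnancy, 9.79 and 9.73 at day 21 and 10.77 and 10.31 postpartum. Its pregnancy arrays were the lowest, with differences of -0.485 ± 0.187 from pre-pregnancy and 0.78 ± 0.187 to postpartum (adjusted p = 0.124 and 0.0673). Of its 3 other probe sets, 1 passed when fitted by itself: it read 9.69 and 9.42, then 8.78 and 8.77, then 9.86 and 9.44, a fall of 1.72-fold (adjusted p = 0.0189) and a rise of 1.83-fold (adjusted p = 0.0338). Another Pdk1 probe set missed, at -0.585 and 0.67 (adjusted p = 0.0925 and 0.122), and the dimmest, with a mean of 3.36, gave 0 and 0.045. Pdk2 read 7.75 and 7.94 before pregnancy, 7.97 and 7.78 at day 21 and 8.44 and 8.21 postpartum. Its postpartum arrays did not overlap those of the other stages, at 0.48 ± 0.131 above pre-pregnancy (adjusted p = 0.0677).

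The remaining sugar-entry and control genes passed in no comparison. Slc2a2, the hepatic glucose transporter GLUT2, lay between 12.49 and 13.0 over the 6 arrays, and its stages overlapped. Pfkl, the liver subunit of phosphofructokinase, read 8.34 and 8.2 before pregnancy, 8.59 and 8.57 at day 21 and 8.6 and 8.47 postpartum. Its difference of 0.31 ± 0.107 in pregnancy (adjusted p = 0.0958) passed in 1 of 7 other settings, repeated quantile normalization (0.422, adjusted p = 0.0323). The other 2 Pfkl probe sets gave 0.35 and 0.015. Pfkfb3, which makes the phosphofructokinase activator fructose 2,6-bisphosphate, was 6.21 and 5.78 before pregnancy, 5.61 and 5.5 at day 21 and 5.64 and 6.04 postpartum, with a difference of -0.44 ± 0.179 in pregnancy (adjusted p = 0.141).

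None (0) of the 5 gluconeogenesis genes passed the limma test in any comparison with the probe set used. Of all genes tested, 13.7%, 3.29% and 7.66% passed in the 3 comparisons in turn. At an unadjusted limma p under 0.05 there were 0, 1 and 1 of the 5, beside 31%, 20.7% and 22.9% of all genes. The median difference was -0.125 from pre-pregnancy to pregnancy, -0.09 from pregnancy to postpartum and -0.09 from pre-pregnancy to postpartum. These are misses of the threshold and not evidence of equal expression, and the intervals below give the range of differences the arrays allow.

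Pck1, the cytosolic phosphoenolpyruvate carboxykinase that commits carbon to gluconeogenesis, had the largest differences of the 5. The probe set used read 13.03 and 13.22 before pregnancy, 13.27 and 13.05 at day 21 and 12.77 and 12.09 postpartum. The postpartum arrays were the lowest, with a difference of -0.695 ± 0.21 from pre-pregnancy (95% interval -1.182 to -0.208, adjusted p = 0.0892) and of -0.73 ± 0.21 from pregnancy (adjusted p = 0.109). Its 3 probe sets disagreed. The second, 1439617_s_at, read 10.31 and 10.56, then 10.32 and 9.73, then 8.8 and 8.11, and fitted by itself it was 3.94-fold lower postpartum than before pregnancy (-1.98 ± 0.255, adjusted p = 0.00569). The dimmest, 1455209_at, went the other way by 0.5 ± 0.153 (adjusted p = 0.0915). With each array left out in turn, the difference of the used probe set from pre-pregnancy lay between -1.035 and -0.355. The strongest value was the one without postpartum replicate 1, which left only the lower postpartum array.

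G6pc, the catalytic subunit of glucose-6-phosphatase, which frees glucose for release, varied most between replicates. It read 11.81 and 12.02 before pregnancy, 12.13 and 11.45 at day 21 and 12.01 and 10.93 postpartum, so all 3 stages overlapped and the postpartum arrays were 1.08 apart. The difference between postpartum and pre-pregnancy was -0.445 ± 0.341, with a 95% interval from -1.235 to 0.345. Slc37a4, the transporter that brings glucose-6-phosphate to that enzyme, lay between 12.06 and 12.27, and its difference in pregnancy was 0.0 with an interval from -0.265 to 0.265.

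Fbp1, fructose-1,6-bisphosphatase, was among the steadiest. It read 13.98 and 14.01 before pregnancy, 13.79 and 13.87 at day 21 and 13.99 and 13.95 postpartum, with a pregnancy difference of -0.165 ± 0.0986 (adjusted p = 0.294). Pcx, the mitochondrial pyruvate carboxylase, lay between 11.63 and 12.1, with overlapping stages and a pregnancy difference of -0.225 ± 0.136 (adjusted p = 0.3).

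Among the glycogen genes, Ppp1r3b fell in pregnancy and rose again, and Gys2 fell from pregnancy to postpartum and was then lower than before pregnancy; the other 5 passed in no comparison. From pre-pregnancy to pregnancy 0 of 7 rose and 1 fell, beside 5.46% of all genes called higher and 8.25% called lower. From pregnancy to postpartum 1 rose and 1 fell, beside 2.41% and 0.879%, and between postpartum and pre-pregnancy 0 were higher and 1 was lower, beside 3.91% and 3.75%. The median difference was -0.135, 0.41 and -0.045 in turn.

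Ppp1r3b encodes GL, the hepatic regulatory subunit that brings protein phosphatase 1 to glycogen and activates glycogen synthase. Its values (probe set 1436590_at) were 12.1 and 11.68 before pregnancy, 10.64 and 10.92 at day 21 and 11.5 and 11.81 postpartum. The pregnancy arrays stood clearly below all others, while the pre-pregnancy and postpartum arrays overlapped. The fall in pregnancy was 2.16-fold (-1.11 ± 0.178, 95% interval -1.522 to -0.698, adjusted p = 0.00907), and the rise to postpartum was 1.83-fold (0.875 ± 0.178, adjusted p = 0.0444). The fall kept its call in 5 of 6 fits with an array left out, between -1.32 and -0.9; without pre-pregnancy replicate 1 its adjusted p was 0.0814. The rise kept its call in 0 of 6, with adjusted p from 0.0702 to 0.207, and was also lost with repeated quantile normalization (0.805, adjusted p = 0.057).

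Gys2 is the liver glycogen synthase, the enzyme that extends the glycogen chain and that Ppp1r3b's product helps to activate. Its values (probe set 1424815_at) were 10.78 and 10.62 before pregnancy, 10.41 and 10.72 at day 21 and 9.92 and 9.69 postpartum. The pre-pregnancy and pregnancy arrays overlapped, and both postpartum arrays lay below them. Gys2 was 1.86-fold lower postpartum than before pregnancy (-0.895 ± 0.143, 95% interval -1.225 to -0.565, adjusted p = 0.0133) and fell 1.69-fold from pregnancy (-0.76 ± 0.143, adjusted p = 0.035). The pregnancy difference itself was -0.135 ± 0.143 (adjusted p = 0.557). Over the arrays left out, the difference from pre-pregnancy lay between -1.01 and -0.78 and was called in 3 of 6, and it was lost when pre-pregnancy replicate 1 (adjusted p = 0.135), pre-pregnancy replicate 2 (0.0612) or postpartum replicate 2 (0.0915) was left out. The fall from pregnancy was called in 1 of 6, the fit without pregnancy replicate 1 (-0.915, adjusted p = 0.0315).

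Ppp1r3b rose and Gys2 fell from pregnancy to postpartum, although their products act on the same step. Whether the courses of these genes differ from each other was not tested.

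Ppp1r3c, another glycogen-targeting subunit of protein phosphatase 1, missed the threshold narrowly. It read 9.47 and 9.68 before pregnancy, 10.46 and 9.36 at day 21 and 10.83 and 10.74 postpartum. Both postpartum arrays were the highest, 2.31-fold above pre-pregnancy (1.21 ± 0.3, adjusted p = 0.0508), and the pregnancy arrays were 1.1 apart. The difference passed in 4 of 7 other settings, but the second probe set of the gene gave only 0.155 ± 0.307 (adjusted p = 0.849).

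Of the other glycogen genes, Gbe1, the branching enzyme, read 10.18 and 9.76 before pregnancy, 9.47 and 9.5 at day 21 and 10.08 and 9.77 postpartum. Its pregnancy arrays were the lowest, at -0.485 ± 0.163 (adjusted p = 0.0892). Pygl, the liver glycogen phosphorylase that breaks glycogen down, lay between 12.48 and 12.87. Ugp2, which makes the UDP-glucose that glycogen synthase uses, read 12.29 and 12.07 before pregnancy, 12.51 and 12.39 at day 21 and 12.57 and 12.44 postpartum, a postpartum difference from pre-pregnancy of 0.325 ± 0.119 (adjusted p = 0.15). All 5 probe sets of Ugp2 gave a postpartum value above pre-pregnancy, from 0.205 to 0.615, and none (0) passed. Ppp1r3g, a further targeting subunit, read between 4.15 and 5.2, below the 40th percentile of gene means (5.515), so no fold is given; the other 27 genes were above it.

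In insulin and glucagon signalling, the insulin receptor substrates were the genes that rose. Irs2 rose in pregnancy, and both Irs1 and Irs2 were higher postpartum than before pregnancy. With the probe set used, 0 of 7 genes fell in any comparison, beside 8.25%, 0.879% and 3.75% of all genes in turn. Some other probe sets of Ppargc1a and Foxo1 passed as lower against pre-pregnancy when fitted by themselves, as given below. The 1 rise in pregnancy stands beside 5.46% of all genes called higher, and the 2 higher genes postpartum against pre-pregnancy beside 3.91%. From pregnancy to postpartum 0 of 7 passed in either direction (limma), beside 3.29% of all genes, with 2 of 7 at an unadjusted p under 0.05, beside 20.7% of all genes. The median difference of the 7 genes was 0.05, 0.105 and 0.175 in turn.

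Irs2 encodes the docking protein through which the insulin receptor acts in the liver and whose gene FOXO1 and fasting are known to induce. Its values (probe set 1443969_at) were 6.88 and 7.56 before pregnancy, 8.21 and 8.48 at day 21 and 8.35 and 8.09 postpartum. Both pre-pregnancy arrays were the lowest and lay 0.68 apart, the widest replicate gap of the 28 genes at that stage, while pregnancy and postpartum overlapped. The rise in pregnancy was 2.18-fold (1.125 ± 0.219, 95% interval 0.619 to 1.631, adjusted p = 0.0168). Postpartum it was still 2.0-fold above pre-pregnancy (1.0 ± 0.219, adjusted p = 0.0348), and the difference from pregnancy was -0.125 ± 0.219 (adjusted p = 0.791). Leaving out pre-pregnancy replicate 1 gave 0.785 for the pregnancy difference (adjusted p = 0.0933) and leaving out pregnancy replicate 2 gave 0.99 (adjusted p = 0.0798); the call was kept in the other 4 fits, up to 1.465 without pre-pregnancy replicate 2. The postpartum difference kept its call in 3 of 6 and lost it without pre-pregnancy replicate 1 (0.66, adjusted p = 0.184) or either postpartum array (adjusted p = 0.144 and 0.114).

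Irs1 encodes the other main insulin receptor substrate of the liver. Its values (probe set 1423104_at) were 9.52 and 9.6 before pregnancy, 9.45 and 9.92 at day 21 and 10.42 and 10.39 postpartum. The postpartum arrays lay above all others and only 0.03 apart, and the pregnancy arrays spanned the pre-pregnancy values. Irs1 was 1.8-fold higher postpartum than before pregnancy (0.845 ± 0.154, 95% interval 0.488 to 1.202, adjusted p = 0.0204), and from pregnancy the difference of 0.72 ± 0.154 missed the threshold (adjusted p = 0.0509). With arrays left out, the difference from pre-pregnancy stayed between 0.805 and 0.885, but its call was kept in 2 of 6 fits, those without a pregnancy array, and was lost without each of the pre-pregnancy and postpartum arrays (adjusted p from 0.0815 to 0.167).

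The Irs2 and Irs1 calls against pre-pregnancy, the Gys2 call against pre-pregnancy and the Ppp1r3b fall in pregnancy were the 5 of 11 called differences that passed in all 7 other settings that kept every array.

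Ppargc1a encodes PGC-1α, a coactivator of gluconeogenic genes in fasting. The probe set used read 8.12 and 8.01 before pregnancy, 7.51 and 7.31 at day 21 and 7.82 and 7.21 postpartum, a pregnancy difference of -0.655 ± 0.191 that missed the threshold (adjusted p = 0.0596). All 4 other probe sets were lower in pregnancy by -0.82 to -0.68, and each passed when fitted by itself (adjusted p from 0.0106 to 0.0219). Among these, 1434099_at read 6.92 and 6.62 before pregnancy, 5.97 and 5.93 at day 21 and 6.69 and 6.42 postpartum, a pregnancy level 1.77-fold lower. Postpartum the 5 probe sets ranged from -0.58 to -0.135 below pre-pregnancy, and only 1437751_at passed (adjusted p = 0.0416).

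Foxo1, the factor that insulin restrains and that drives G6pc and Pck1 in fasting, read 9.09 and 8.97 before pregnancy, 8.91 and 8.9 at day 21 and 8.74 and 8.49 postpartum. The stages did not overlap, and the postpartum difference from pre-pregnancy was -0.415 ± 0.119 (adjusted p = 0.0772). Fitted by themselves, 2 of its 3 other probe sets passed for that comparison, at -0.525 (adjusted p = 0.0392) and -0.795 (adjusted p = 0.0165), and the dimmest, with a mean of 4.92, gave -0.04.

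Insr, the insulin receptor, read 10.48 and 10.26 before pregnancy, 10.7 and 10.74 at day 21 and 10.61 and 10.52 postpartum. The pregnancy arrays were the highest, at 0.35 ± 0.113 above pre-pregnancy (adjusted p = 0.0802). This difference passed in 1 of 7 other settings, repeated quantile normalization (0.441, adjusted p = 0.0329). The other 2 Insr probe sets gave 0.185 and -0.045 in pregnancy. Akt2, the main insulin-responsive AKT kinase of the liver, stayed between 9.28 and 9.51, and its pregnancy difference was 0.04 with a 95% interval from -0.214 to 0.294. Gcgr, the glucagon receptor, stayed between 11.03 and 11.27, with a pregnancy difference of 0.05 and an interval from -0.192 to 0.292.

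The choice of probe set thus mattered for several genes. The 28 genes have 58 probe sets, 15 genes having 1 and 13 several. With each of the 34945 probe sets of 1 symbol fitted by itself, 1 of the 58 rose and 8 fell from pre-pregnancy to pregnancy (12.8% of all probe sets called in either direction). From pregnancy to postpartum 3 rose and 2 fell (2.55%), and between postpartum and pre-pregnancy 4 were higher and 5 lower (7.66%). Probe sets of 1 gene share its RNA and are not replicates.

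**Figure D3:**
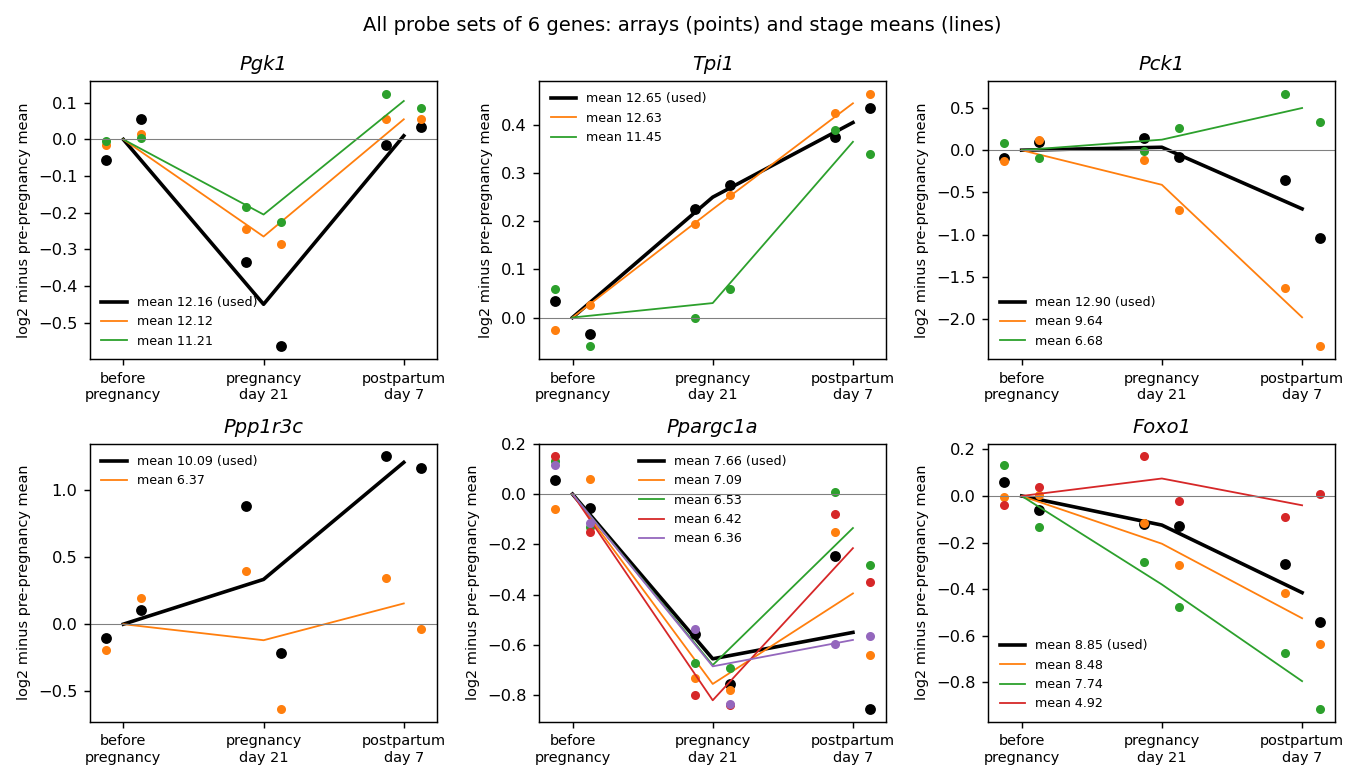
Every probe set of 6 genes as log2 difference from its own pre-pregnancy mean (vertical axis), with arrays as points, stage means joined by lines, the probe set used in black and each probe set's mean level in the legend. The 5 Ppargc1a and 3 Pgk1 probe sets all dip in pregnancy, whereas the 3 of Pck1 end at 0.5, -0.695 and -1.98 postpartum.

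A further 108 genes of the same pathways were measured of 118 listed. Of these, 14 rose and 13 fell from pre-pregnancy to pregnancy, beside 5.46% and 8.25% of all genes tested. From pregnancy to postpartum 7 rose and 1 fell, beside 2.41% and 0.879%, and 14 were higher and 4 lower postpartum than before pregnancy, beside 3.91% and 3.75%. The same shares of all genes are the background for the counts of each pathway below. Their median differences were 0.028, 0.048 and 0.09. The 16 genes given with values below have 29 called differences, of which 4 kept their call with every array left out in turn: the Mlxipl rise from pregnancy to postpartum and the pregnancy differences of Gpd1, Stbd1 and Prkaa2. Without pre-pregnancy replicate 1, 23 of the 29 were lost.

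Around glycolysis, 28 of 32 listed genes were measured; 3 rose and 2 fell in pregnancy, 3 rose and 1 fell from pregnancy to postpartum, and 5 were higher and 0 lower postpartum than before pregnancy. Mlxipl, which encodes the glucose-responsive transcription factor ChREBP, passed in all 3 comparisons. It read 10.61 and 10.86 before pregnancy, 10.0 and 10.11 at day 21 and 11.45 and 11.28 postpartum, with no overlap between stages. It fell 1.6-fold in pregnancy (-0.68 ± 0.126, adjusted p = 0.0141), rose 2.48-fold to postpartum (1.31 ± 0.126, adjusted p = 0.00357) and ended 1.55-fold above pre-pregnancy (adjusted p = 0.0263).

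Aldoc, an aldolase isoform, fell 2.09-fold in pregnancy, from 8.82 and 8.36 to 7.49 and 7.56, and rose 2.22-fold to 8.81 and 8.54 postpartum (adjusted p = 0.00828 and 0.0157). Its second probe set gave 0.145 ± 0.114 in pregnancy (adjusted p = 0.44), so the fall rests on the brighter one. Aldoa, the aldolase of muscle and many other tissues, read 9.54 and 9.48, then 9.92 and 9.86, then 10.26 and 10.36, and rose 1.3-fold in pregnancy (0.38 ± 0.101, adjusted p = 0.0456) and was 1.74-fold higher postpartum than before pregnancy (adjusted p = 0.00724). The pregnancy rise lost its call with each of the 6 arrays left out (adjusted p from 0.0707 to 0.165) and in 3 of 7 other settings. Slc2a5, the fructose transporter GLUT5, read 6.19 and 6.18 before pregnancy, 6.67 and 7.03 at day 21 and 7.16 and 6.73 postpartum. It rose 1.59-fold in pregnancy (adjusted p = 0.0407), a call lost in 2 of 7 other settings, and was 1.69-fold higher postpartum than before pregnancy (adjusted p = 0.0382). To complete these counts, and named after their values were seen, Ldha rose in pregnancy and fell afterwards, Mlx, the partner of ChREBP, rose from pregnancy to postpartum, and Tkfc and Dlat were higher postpartum than before pregnancy.

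Around gluconeogenesis, 22 of 24 listed genes were measured; 2 rose and 4 fell in pregnancy, 1 rose and 0 fell from pregnancy to postpartum, and 2 were higher and 3 lower postpartum than before pregnancy. Cebpb, a transcription factor of the fasting and glucocorticoid responses, read 12.15 and 11.94 before pregnancy, 11.54 and 11.34 at day 21 and 11.08 and 11.09 postpartum. It fell 1.52-fold in pregnancy (adjusted p = 0.0183) and was 1.95-fold lower postpartum than before pregnancy (adjusted p = 0.00698). Nr3c1, the glucocorticoid receptor, read 10.96 and 10.66, then 10.17 and 10.01, then 10.15 and 9.87, and was 1.65-fold and 1.74-fold below pre-pregnancy at the later stages (adjusted p = 0.0198 and 0.0208). Of its 6 probe sets, 1431378_at gave 0.205 in pregnancy (adjusted p = 0.405).

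Got1, the cytosolic aspartate aminotransferase, read 11.14 and 11.5 before pregnancy, 10.87 and 10.57 at day 21 and 11.98 and 11.88 postpartum. It fell 1.52-fold in pregnancy (adjusted p = 0.0407) and rose 2.31-fold afterwards (adjusted p = 0.0105). The fall kept its call in 1 of 6 fits with an array left out (adjusted p up to 0.181) and was lost in 3 of 7 other settings, among them repeated quantile normalization. Gpd1, the cytosolic glycerol-3-phosphate dehydrogenase, read 10.18 and 10.1, then 11.25 and 11.02, then 11.16 and 11.17, a 1.99-fold rise in pregnancy (adjusted p = 0.00287) that was held postpartum at 2.03-fold (adjusted p = 0.00454). Another Gpd1 probe set gave -0.025 and -0.02 for these differences. The remaining calls, also named after their values were seen, were a rise of Ldhb in pregnancy, lower Mpc1 at both later stages and higher Cebpa postpartum than before pregnancy.

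Around glycogen, 22 of 24 listed genes were measured; 4 rose and 1 fell in pregnancy, 2 rose and 0 fell from pregnancy to postpartum, and 3 were higher and 0 lower postpartum than before pregnancy. Stbd1, a glycogen-binding protein linked to glycogen transport to lysosomes, read 9.95 and 9.39 before pregnancy, 10.69 and 10.99 at day 21 and 10.05 and 10.11 postpartum, and rose 2.25-fold in pregnancy (1.17 ± 0.188, adjusted p = 0.00909). Gaa, the lysosomal glycogen-degrading glucosidase, read 8.79 and 9.31, then 9.96 and 9.98, then 9.81 and 9.82, and rose 1.89-fold in pregnancy (adjusted p = 0.0121); postpartum it was 1.7-fold above pre-pregnancy (adjusted p = 0.0318). Nhlrc1, the ubiquitin ligase malin, rose 1.55-fold in pregnancy, from 5.83 and 5.86 to 6.45 and 6.51 (adjusted p = 0.0135). Pygb, the brain form of glycogen phosphorylase, rose 1.57-fold from pregnancy to postpartum, from 6.39 and 6.09 to 6.97 and 6.82 (adjusted p = 0.0427); this call was kept in 1 of 6 fits with an array left out (adjusted p up to 0.196) and lost in 2 of 7 other settings. Named to complete the counts, Gys1 rose in pregnancy, Phka1 fell in pregnancy and rose afterwards, and Phka2 and Ppp1ca were higher postpartum than before pregnancy.

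Around insulin signalling, 36 of 38 listed genes were measured; 5 rose and 6 fell in pregnancy, 1 rose and 0 fell from pregnancy to postpartum, and 4 were higher and 1 lower postpartum than before pregnancy. Both catalytic subunits of the energy-sensing kinase AMPK fell in pregnancy. Prkaa2 read 9.94 and 9.84 before pregnancy, 8.97 and 9.06 at day 21 and 9.5 and 9.49 postpartum, a 1.83-fold fall (adjusted p = 0.00296) and a 1.39-fold rise (adjusted p = 0.049). The rise lost its call with each of the 6 arrays left out (adjusted p from 0.0954 to 0.197) and in 4 of 7 other settings, while the fall kept its call in all of them. Prkaa1 read 6.55 and 6.23, then 5.57 and 5.65, then 5.71 and 5.6, a 1.72-fold fall (adjusted p = 0.0102), and was 1.66-fold below pre-pregnancy postpartum (adjusted p = 0.0188).

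Mtor, the nutrient-sensing kinase, read 8.39 and 8.58 before pregnancy, 9.45 and 9.3 at day 21 and 9.2 and 9.07 postpartum, a 1.85-fold rise in pregnancy (adjusted p = 0.00457) and 1.57-fold above pre-pregnancy postpartum (adjusted p = 0.0204). Another Mtor probe set gave -0.085 for the postpartum difference (adjusted p = 0.748). Grb10, an inhibitory adaptor of the insulin receptor, read 6.95 and 6.84, then 5.91 and 6.09, then 6.52 and 6.29, a 1.86-fold fall in pregnancy (adjusted p = 0.00544), but its other 2 probe sets gave 0.025 and 0.265 (adjusted p = 0.91 and 0.128). Named to complete the counts, Pik3r2, Pik3r3, Foxo4 and Ceacam1 rose and Pik3cb, Akt1 and Foxa2 fell in pregnancy, and Pik3r2, Foxo4 and Prkaca were higher postpartum than before pregnancy.

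**Figure D4:**
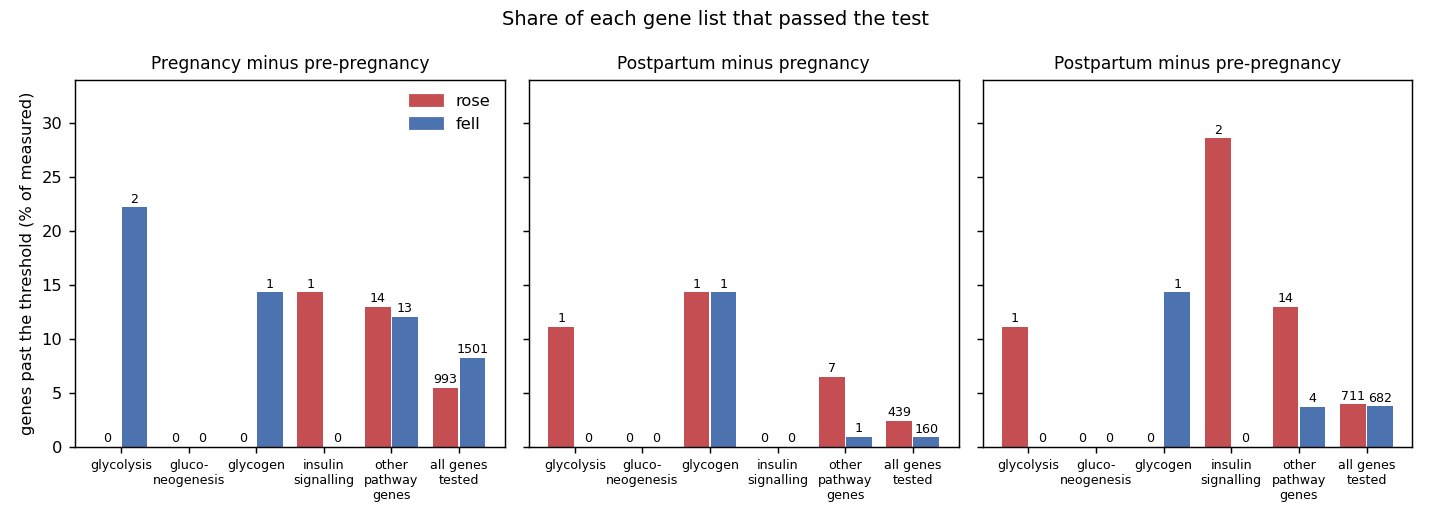
Share of each list that rose or fell (vertical axis, % of measured genes, from 0; the counts stand above the bars) in the 3 comparisons, for the 4 pathways, the 108 other pathway genes and all 18193 genes tested. With 5 to 9 genes a pathway, each bar of a pathway stands for 0, 1 or 2 genes.

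Other measures are given here beside the shares of all genes. In pregnancy 5.46% of all genes rose, 8.25% fell and 13.7% passed in either direction. Between postpartum and pre-pregnancy 7.66% passed. Among 18 clock genes measured, only Nr1d1 (higher) and Cry1 (lower) passed in pregnancy, and both also passed postpartum against pre-pregnancy. The pregnancy replicates of the clock genes differed by a median of 0.365, with Arntl at 7.62 and 5.66. The 28 genes differed between the pregnancy replicates by a median of 0.2, and 2 by over 0.5, Ppp1r3c and G6pc. For all 18193 genes the median was 0.14, and 906 differed by over 0.5. Between the postpartum replicates the 28 genes differed by a median of 0.13, beside 0.12 for all genes. There 4 of the 28 differed by over 0.5, G6pc, Ppp1r3g, Pck1 and Ppargc1a, beside 488 of all genes. In each of these 4, postpartum replicate 2 was the lower. Sinusoidal endothelium markers summed to 12.61 and 12.28 before pregnancy, 12.06 and 12.04 at day 21 and 12.04 and 11.95 postpartum, and 3 of 8 fell in pregnancy. Neutrophil markers summed to 7.95 and 8.11, then 8.48 and 8.54, then 8.1 and 8.12, and 2 of 6 rose in pregnancy. In the other marker lists 1 of 8 Kupffer cell genes (Timd4, lower) and 1 of 7 stellate cell genes (Lrat, lower) passed in pregnancy. Of the pancreatic acinar genes 2 of 5 passed, Cela3b higher and Cela1 lower, with differences in that list from -1.18 to 3.035. From pregnancy to postpartum Cela3b fell, beside 0.879% of all genes called lower. In pregnancy 0 of 5 bile duct and 0 of 3 erythroid genes passed. The log2 difference between the 3′ and 5′ control probe sets of Gapdh, a sign of RNA integrity, was -0.02 and 0.0 before pregnancy, 0.09 and 0.27 at day 21 and 0.29 and 0.3 postpartum, and that of Actb was 1.27 and 1.19, then 1.06 and 1.21, then 1.44 and 1.43. The part of these measures in the results above was not tested.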

How the data were processed

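The 6 liver samples were measured on Affymetrix mouse arrays from 250 ng of RNA each, labelled by a 3′ in vitro transcription kit, per the labels' protocols. The deposited values are log2 expression values of 45101 probe sets; the authors used RMA and Affymetrix Power Tools, per the submitters' processing notes, and the sources used here give no versions or settings. The table names no scale, and log2 was inferred from the range of 2.69 to 15.05. RMA as usually run equalises the arrays' distributions and compresses differences near background.

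The platform annotation gave the gene symbols: 34945 probe sets had 1 symbol, 932 several, 9160 none, and 64 controls were left out. Gene IDs of 34741 were found in the RefSeq table and 0 symbols changed. Each gene was represented by its probe set of highest average value (18193 genes, 9010 with several probe sets).

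Group means were fitted with limma 3.58.1 in R 4.3.3 (lmFit, eBayes) over all 6 arrays, with 3 residual and 4.8 prior degrees of freedom; tests are two-sided, adjusted by Benjamini-Hochberg over all genes at 0.05. Errors are moderated SEs. The code of the fit was checked on simulated data with known changes and independent noise, which does not test how it performs on these arrays. P-values rest on the spread between the 2 arrays of a stage, pooled over the 3 stages and moderated by the spread of all genes. No pair held identical values (2.04% to 2.46% of genes agreed).

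The genes and lists were chosen with earlier results of these data known. All listed genes are described, called ones array by array; of the other pathway genes, up to 4 called ones a list with the largest differences are given with values, and the further called genes are named without values, chosen after their values were seen. Groups of genes are described by counts and medians, with no set test. Alternatives were a replicate block, a filter on dim genes, other scalings and variance models, other probe sets, other sample sets, a threshold of 0.1 and each array left out. Promoters are RefSeq windows in GRCm38.p6.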

Additional observations from a re-analysis of the deposited data

How the results depend on the processing

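The 2 arrays per stage limit every result. With an array left out, the listed genes called ranged from 0 to 4 (pregnancy against pre-pregnancy), 0 to 3 (postpartum against pregnancy), 0 to 4 (postpartum against pre-pregnancy) and 0 to 6 (F test), and all genes called from 323 to 1977, 114 to 528, 73 to 1582 and 357 to 2294, beside 2494, 599, 1393 and 2505 with all arrays. The lone array of such a stage is assumed to have the spread of the other stages. At a threshold of 0.1 the listed genes called were 8, 6, 9 and 14 and all genes 4066, 1337, 2489 and 4321. For postpartum against pregnancy, a trended and robust variance called 6 listed genes. A limma fit of only those 2 stages called 0 listed genes and 203 of all genes. In the limma fit of all arrays, 12 of the 28 had an unadjusted p under 0.05 for this comparison, beside 20.7% of all genes. Repeated quantile normalization gave 1284 genes higher and 1150 lower in pregnancy, beside 993 and 1501 as deposited, and 286 and 189 from pregnancy to postpartum, beside 439 and 160.

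With the replicate number as a block, 4, 4, 4 and 7 listed genes were called and 2612, 574, 1567 and 2567 of all genes, with 3 of the 11 called differences lost and 4 gained. Replicate differences correlated across genes at 0.028, 0.111 and -0.027 between stages, so the replicate numbers were not taken as pairing the animals.

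Of the 84 differences of the 28 genes, 73 were not called, and 24 of these changed sign in at least 1 setting. Among the other pathway genes, single probe sets reversed the sign of Aldoc (0.145), Gpd1 (-0.025 and -0.02), Nr3c1 (0.205), Grb10 (0.025 and 0.265) and Mtor (-0.085); the cause was not tested.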
